A study of Mus musculus with 18 samples.

Results

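The genes examined here carry the interleukin 6 signal from the cell surface to the nucleus and switch it off again: the receptor chains Il6ra, Il6st, Osmr and Lifr, the kinases Jak1 and Jak2, the transcription factor Stat3 and the inhibitors Socs1, Socs3 and Cish. All 10 were chosen by gene symbol, and all 10 had a row among the 17180 genes listed in the deposited tables. The tables hold read counts from liver of C57BL/6 mice in which 2/3 of the liver had been removed (partial hepatectomy, after which the rest regrows) and of sham-operated mice. The 9 groups were sham and 0.5, 2, 4, 24, 48, 72, 120 and 168 h after hepatectomy, each with 2 libraries, and each library was made from pooled RNA of 3 mice, 54 mice in all. Differences among the 3 mice of a pool cannot be seen, the spread below is that between 2 pools, and the labels give neither the time at which sham livers were taken nor the sex or age of the mice.

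Interleukin 6 binds its receptor Il6ra, and the pair then engages Il6st (gp130), the signalling chain that all cytokines of this family share. Janus kinases bound to gp130 phosphorylate Stat3, which enters the nucleus and switches on acute-phase genes together with Socs3, whose protein binds gp130 and the kinases and ends the signal. Oncostatin M and leukemia inhibitory factor reach the same gp130 through Osmr and Lifr. After hepatectomy, interleukin 6 made largely by macrophages is known as one of the early signals of regeneration in mouse liver. The libraries measure RNA only, so phosphorylation of Stat3 is not part of these data.

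Stat factors bind DNA at a palindrome written here as TTCNNNGAA, which reads the same on both strands. RefSeq promoter windows on GRCm38.p6 (the same build as mm10) reach from 250 bases before an annotated start to 50 bases after it, 300 bases in all. The 10 members had 11 such windows, since Lifr has 2. The letters were found in the windows of 2 members, Socs3 and Cish, and not in those of the other 8. Of all 32851 promoter windows, 8.3% held at least 1 match and 0.457% held 2 or more. The windows of both inhibitors are printed because they hold the letters, and those of Stat3 and Osmr because these genes also rose early but hold none. The Socs3 window is chr11:117969317-117969616 on the minus strand, the Cish window chr9:107296409-107296708 on the plus strand, the Stat3 window chr11:100939491-100939790 on the minus strand and the Osmr window chr15:6874264-6874563 on the minus strand. Each is given 5′ to 3′ in the direction of the gene, and capitals mark the matches.
Socs3: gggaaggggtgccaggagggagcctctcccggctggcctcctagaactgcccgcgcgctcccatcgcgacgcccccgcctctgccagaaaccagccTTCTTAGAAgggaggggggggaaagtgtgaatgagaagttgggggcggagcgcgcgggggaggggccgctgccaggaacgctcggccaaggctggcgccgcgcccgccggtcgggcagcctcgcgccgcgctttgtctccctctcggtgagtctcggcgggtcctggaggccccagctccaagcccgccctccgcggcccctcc
Cish: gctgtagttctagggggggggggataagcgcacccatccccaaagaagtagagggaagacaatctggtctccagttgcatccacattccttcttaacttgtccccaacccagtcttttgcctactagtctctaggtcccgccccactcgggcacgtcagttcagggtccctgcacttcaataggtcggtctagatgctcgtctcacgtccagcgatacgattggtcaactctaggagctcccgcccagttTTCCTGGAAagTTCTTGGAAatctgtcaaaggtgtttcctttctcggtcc
Stat3: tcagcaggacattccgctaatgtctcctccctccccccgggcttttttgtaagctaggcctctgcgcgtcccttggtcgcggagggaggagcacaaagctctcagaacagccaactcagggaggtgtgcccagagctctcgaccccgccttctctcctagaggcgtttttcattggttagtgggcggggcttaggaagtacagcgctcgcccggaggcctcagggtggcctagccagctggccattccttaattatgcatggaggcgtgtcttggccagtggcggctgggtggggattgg
Osmr: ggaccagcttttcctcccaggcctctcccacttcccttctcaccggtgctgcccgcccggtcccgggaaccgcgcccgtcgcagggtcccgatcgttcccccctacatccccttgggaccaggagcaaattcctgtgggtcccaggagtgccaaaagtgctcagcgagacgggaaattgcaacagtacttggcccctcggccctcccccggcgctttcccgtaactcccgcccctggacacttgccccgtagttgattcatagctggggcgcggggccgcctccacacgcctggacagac
The Socs3 match, TTCTTAGAA, lies 154 to 146 bases before the start that its window uses. The windows of Socs3 and Osmr, and both of Lifr, lie wholly inside the gene spans given below. The start used for them is thus an inner one, and the Socs3 match lies inside the span chr11:117966079-117970336. In Cish, TTCCTGGAA begins at the start itself and TTCTTGGAA covers the bases 11 to 19 after it. A match is a run of letters and not a measured binding site, and the windows say nothing of sequence further away.

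Levels are counts per 1000000 reads (CPM) scaled by TMM factors, and levels of different genes are compared only as the deposited RPKM, which divides by gene length. Library totals ran from 7.78 to 9.16 in units of 1000000 reads. In 16 libraries the table was complete, so that an unlisted gene had 0 reads. The table of sham replicate 2 stops at a count of 52 and that of 0.5 h replicate 1 at 157, so that a gene unlisted there is unknown and can reach up to 6.52 and 19.0 CPM. Socs3, Osmr and Socs1 are unlisted in both, and Jak2 in the 0.5 h library. Members were therefore tested in 18, 17 or 16 libraries, whichever held a value for them, with edgeR's quasi-likelihood test and Benjamini-Hochberg adjustment over all genes of the fit; for Socs3 and Osmr the sham group is 1 pool, assumed to vary like the other groups. Markers of hepatocytes (Alb, Ttr, Apoa1, Cps1 and Hnf4a) were all present in every group, which fits the label liver.

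At 4 h after hepatectomy, 6 of the 9 tested members were called against sham at an adjusted p under 0.05, and all 6 were higher: Stat3, Socs3, Osmr, Cish, Il6st and Jak1. Of all 12199 genes tested, 24.8% were called at that time and 12.7% were called higher. DESeq2 called the same 6 members at 4 h and also Lifr, which was lower (adjusted p = 0.0291). At 2 h, Stat3 and Jak1 were called, both higher, against 5.93% of all genes called and 3.11% called higher. No member was called by edgeR, DESeq2 or limma-trend at 0.5 h, where 0.123% of all genes were, and only Stat3 had an unadjusted p under 0.05. From 24 h on the pattern was another one: Lifr was lower at 24 h (1 member called, against 9.39% of all genes), and at 48 h Stat3 was higher while Lifr and Jak2 were lower (3 called, against 25.5% of all genes). None was called at 72, 120 or 168 h, when 8.42%, 0.475% and 3.16% of all genes were. At an unadjusted p under 0.05 there was 1 member at each of these times, Lifr at 72 h, Jak2 at 120 h and Il6ra at 168 h, and DESeq2 called 1 at 72 h and 1 at 168 h while limma-trend called none. Over all 9 groups, 8 of the 9 tested members differed, against 51.6% of all genes, the exception being Jak2 with an adjusted p of 0.0951. The median log2 fold change of the 9 members was 0.46 at 2 h and 0.65 at 4 h, beside -0.04 and 0.05 for all genes tested.

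**Figure D1:**
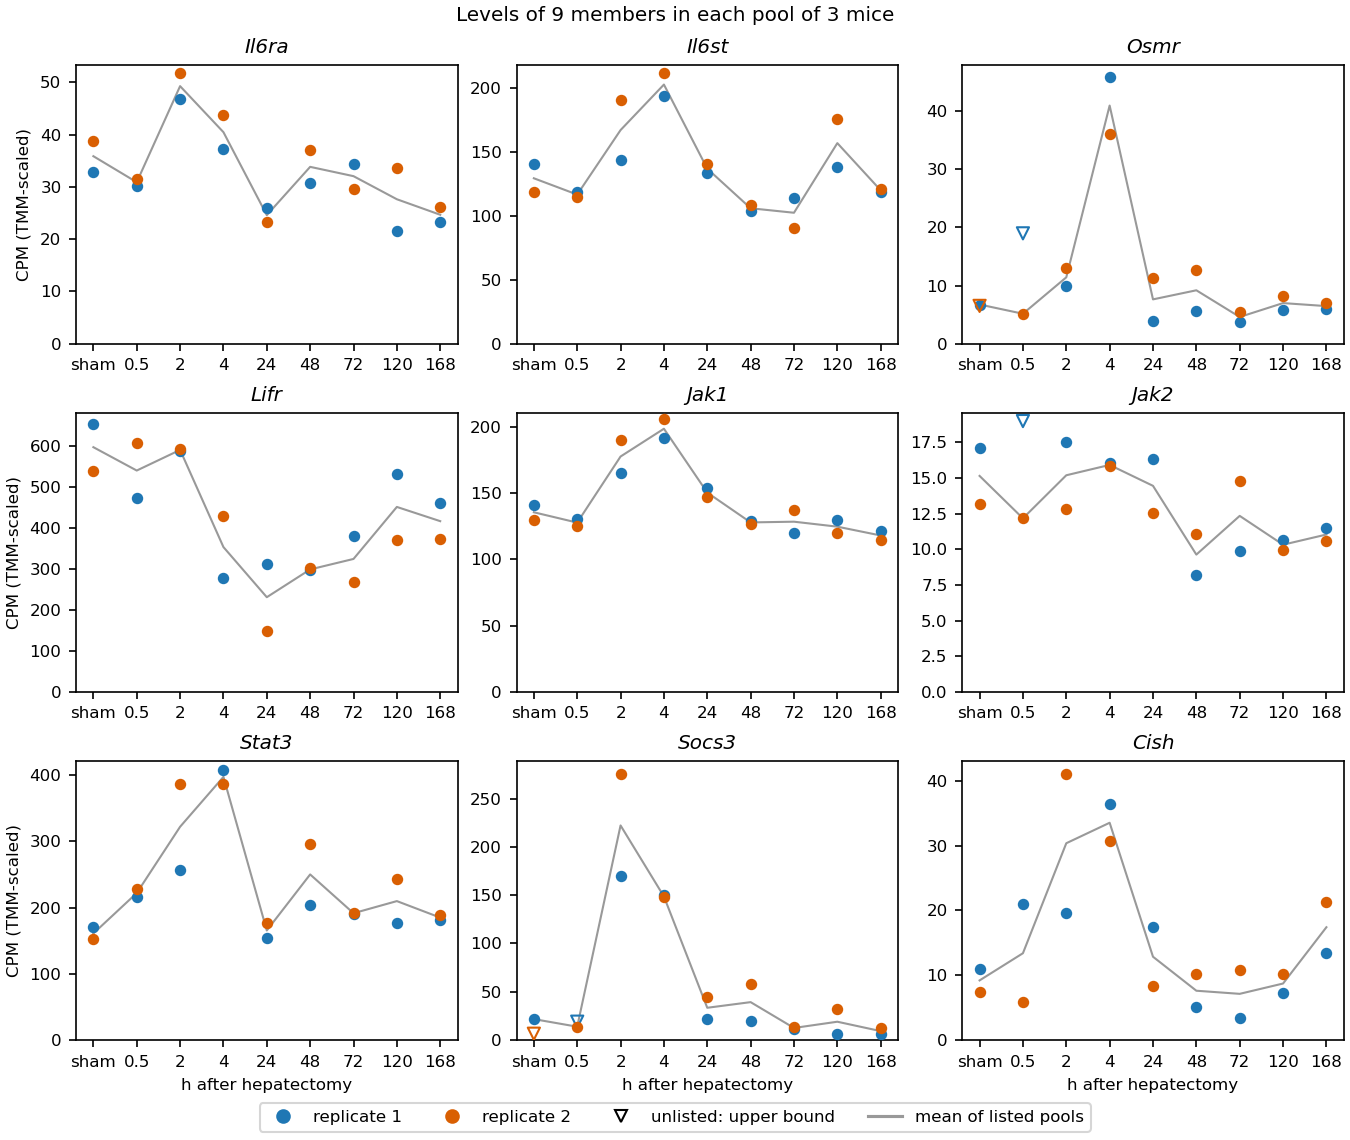
Level of each of 9 members (CPM scaled by TMM factors, linear axes from 0) in each pool of 3 mice, in sham livers and at 8 times in h after hepatectomy (evenly spaced, not to scale). Filled points are pools, open triangles the upper bound of a gene unlisted in a short table and lines the mean of the listed pools; Socs3 is highest at 2 h, Stat3 and Osmr at 4 h, and Lifr is lowest at 24 h.

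Stat3, the transcription factor at the centre of the pathway (chr11:100886806-100939594, mm10), had 169.9 and 152 CPM in sham pools, 215 and 228 CPM at 0.5 h, 257 and 387 CPM at 2 h and 408 and 387 CPM at 4 h. It then had 154 and 177 CPM at 24 h, 204 and 296 CPM at 48 h, 191 and 192 CPM at 72 h, 176.5 and 243 CPM at 120 h and 181 and 188 CPM at 168 h. Both pools of every time other than 24 h lay above both sham pools, and the 2 pools of 2 h stood 0.59 apart on the log2 scale. The log2 fold change against sham 2 h after hepatectomy was 1.001 ± 0.206 (SE, adjusted p = 0.00832). For 4 h it was 1.30 ± 0.21 (adjusted p = 0.000332), and for 48 h it was 0.64 ± 0.20 (adjusted p = 0.0269). Against 4 h, the 24 h pools were lower by a log2 fold change of -1.27 ± 0.21 (adjusted p = 0.000411). The 4 h call and the fall at 24 h held when any single library was left out. The 2 h call did not hold without 2 h replicate 2 (0.68, adjusted p = 0.0994) or sham replicate 2 (0.92, adjusted p = 0.0813), nor the 48 h call without 48 h replicate 2 (0.35, adjusted p = 0.287), sham replicate 1 (adjusted p = 0.0764) or sham replicate 2 (adjusted p = 0.137). Exons of Stat3 and of Stat5a on the other strand overlap by 72 bases, and the sources used here do not say whether counting used the strand. Stat5a stayed between 8.86 and 14.1 CPM in every pool with a value.

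Socs3, the inhibitor that Stat3 induces (chr11:117966079-117970336), showed the steepest early rise of the members. It had 21.6 CPM in sham replicate 1 and at most 6.52 CPM in sham replicate 2, then 13.8 CPM in the listed 0.5 h pool, 169.4 and 275 CPM at 2 h and 149.7 and 148 CPM at 4 h. Both pools of 2 h and of 4 h thus lay well above every sham and 0.5 h value or bound. The 4 h change against the 1 sham pool was 2.75 ± 0.83 on the log2 scale (adjusted p = 0.0393). The larger 2 h change, 3.43 ± 0.85, just missed the threshold (adjusted p = 0.0517). DESeq2 gave an adjusted p of 0.0178 for it, and over 27 alternative settings the adjusted p lay between 6.82e-35 and 0.188. Between 0.5 h and 2 h the rise was 4.05 ± 0.89 (adjusted p = 0.0278), with 1 pool at 0.5 h. The 4 h call did not hold without 4 h replicate 1 (adjusted p = 0.0883), 4 h replicate 2 (0.0734), 72 h replicate 1 (0.0545) or 72 h replicate 2 (0.0541), with log2 fold changes of 2.72 to 2.77. The 2 h step did not hold without 2 h replicate 1 (4.38) or 2 h replicate 2 (3.62). With unlisted genes at 0 neither the 4 h change (3.76, adjusted p = 0.0825) nor the 2 h step (5.05, adjusted p = 0.0685) was called.

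After 4 h Socs3 fell and its pools drew apart. It had 21.8 and 45.0 CPM at 24 h, 20.1 and 58.4 CPM at 48 h, 11.5 and 13.4 CPM at 72 h, 6.19 and 31.7 CPM at 120 h and 5.81 and 12.6 CPM at 168 h. The fall at 24 h against 4 h was -2.14 ± 0.60 on the log2 scale (adjusted p = 0.0218). It did not hold without 24 h replicate 1 (-1.76), 4 h replicate 1 (-2.12) or 4 h replicate 2 (-2.16). Nor was it called with unlisted genes at 0 (-2.19, adjusted p = 0.380). Replicate 2 was the higher pool in 6 of the 7 groups with both values, and the median difference between the pools of a group was 1.05 on the log2 scale. Over the 4906 genes listed in every table, the median absolute difference between the pools of a group was 0.118 to 0.223. The 2 pools of 120 h stood furthest apart, 2.36 on the log2 scale.

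Markers of other cell types also moved in these livers, in part along with the members. Of 7 neutrophil markers the tables hold 6, whose summed level in replicates 1 and 2 was 53.3 and 35.3 CPM at 2 h and 117 and 53.4 CPM at 4 h, against 10.3 CPM in sham replicate 1. Replicate 1 was the higher pool at both times, unlike Socs3, which was higher in replicate 2 at 2 h and nearly equal at 4 h. The neutrophil sum was 6.30 and 46.6 CPM at 24 h and 11.4 and 48.1 CPM at 48 h, with replicate 2 higher as for Socs3, and 9.97 and 13.4 CPM at 120 h, where the Socs3 pools stood furthest apart. Of the 6, Mpo was at 0 at 2 h, and none was at 0 at 4 h. The 7 markers of Kupffer cells and other macrophages summed to 381 to 427 CPM at 2 h and 577 to 711 CPM at 4 h. In sham replicate 1 they summed to 466 CPM, so that both 2 h pools lay below it. Their sums were above 1000 CPM in both 168 h pools (1024 and 1205 CPM), where Socs3 was low. The same held in 24 h replicate 2 (1087 CPM), where Socs3 was the higher of its pair. The 5 cholangiocyte markers, none at 0, summed to 158 and 97.4 CPM at 4 h, when 6 members were called higher, against 39.1 CPM in sham replicate 1. In the pools of other times that sum lay between 33.6 and 51.6 CPM, apart from 104.5 CPM in 72 h replicate 2. The part of these cells in the changes of the members was not tested. In whole liver, fewer cells of a type and less RNA per cell cannot be told apart.

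Cish, a SOCS family member best known as a target of Stat5 (chr9:107296659-107302784), had 11.0 and 7.39 CPM in sham pools. It had 20.9 and 5.85 CPM at 0.5 h, 19.6 and 41.1 CPM at 2 h and 36.4 and 30.6 CPM at 4 h, and the later pools lay between 3.445 and 21.3 CPM. Both pools of 2 h and both of 4 h were above both sham pools. The change against sham was 1.86 ± 0.60 on the log2 scale at 4 h (adjusted p = 0.0269), while the 1.73 ± 0.59 of 2 h did not pass (adjusted p = 0.0972). The 4 h call did not hold without either 4 h pool (adjusted p = 0.0967 without replicate 1 and 0.0539 without replicate 2) or either sham pool (0.0736 without replicate 1 and 0.152 without replicate 2). Like Socs3, Cish differed between pools of a group by a median of 1.02 on the log2 scale. Exons of Cish, 2161 bases in all, overlap on the other strand by 479 bases with those of Gm17041 and by 261 bases with those of Gm17040, for which no value was used here.

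Socs1, another inhibitor of the kinases (chr16:10783808-10785536), was hardly detected. It had 3 reads in 4 h replicate 1, 1 read in 48 h replicate 2 and 0 reads in the other 14 complete libraries. A count of 0 allows up to 3 reads, which is at most 0.386 CPM in any library by library totals alone. Scaled by TMM factors, the 3 reads of 4 h replicate 1 were 0.485 CPM. A change of Socs1 was not detectable at this depth, and it was not tested.

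Among the receptor chains, Osmr showed a brief peak and Lifr a drop, while Il6st and Il6ra moved less. Osmr, the oncostatin M receptor (chr15:6813568-6874968), had 6.75 CPM in sham replicate 1, at most 6.52 CPM in sham replicate 2 and 5.16 CPM in the listed 0.5 h pool. It had 9.88 and 13.0 CPM at 2 h and 45.8 and 36.1 CPM at 4 h. At 24 h it was back at 3.95 and 11.3 CPM, and the pools of 48 to 168 h lay between 3.77 and 12.7 CPM. The next highest pool, 13.0 CPM at 2 h, stood well below both 4 h pools. The log2 fold change was 2.57 ± 0.57 at 4 h against sham (adjusted p = 0.00861), 1.75 ± 0.42 at 4 h against 2 h (adjusted p = 0.0262) and -2.41 ± 0.43 at 24 h against 4 h (adjusted p = 0.00146). The first and the last held without any single library that left a value. The step between 2 h and 4 h did not hold without any of its 4 libraries (log2 fold changes of 1.54 to 1.99). With unlisted genes at 0 none of these changes was called, though all kept their sign. Adjusted p was then 0.329 for 4 h against sham and 0.663 for 24 h against 4 h.

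Lifr, the receptor for leukemia inhibitory factor (chr15:7090610-7197489), was the most abundant member in sham livers and went the other way. It had 655 and 540.4 CPM in sham pools, 473 and 609 CPM at 0.5 h, 588 and 594 CPM at 2 h, 277 and 430.5 CPM at 4 h and 313 and 149 CPM at 24 h. Later it had 297 and 302 CPM at 48 h, 382 and 268 CPM at 72 h, 533 and 371 CPM at 120 h and 461 and 373 CPM at 168 h. From 4 h on every pool was below both sham pools. The change against sham was -0.76 ± 0.31 on the log2 scale at 4 h (adjusted p = 0.0715), -1.37 ± 0.31 at 24 h (adjusted p = 0.0100) and -0.999 ± 0.310 at 48 h (adjusted p = 0.0232). The 4 h change was called by DESeq2 (-0.75, adjusted p = 0.0291), with totals alone (-1.13, adjusted p = 0.00838) and in a fit of only sham and 4 h (-0.77, adjusted p = 0.0404). It was not called with limma-trend, RLE factors or a replicate block. Without 24 h replicate 2 the 24 h change was -0.94 (adjusted p = 0.0687) and without sham replicate 1 it was -1.22 (adjusted p = 0.0696). The 48 h call did not hold without 48 h replicate 1 (adjusted p = 0.0935), 48 h replicate 2 (0.0966) or sham replicate 1 (-0.85, adjusted p = 0.128). The summed level of the 5 hepatocyte markers was 64290 to 76760 CPM at 24 h, against 108700 CPM in sham replicate 1, and its part in the lower Lifr was not tested. At 48 h it was 105800 to 108200 CPM.

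Il6st, the gp130 chain that all of these receptors need (chr13:112464070-112506860), moved far less. It had 193.7 and 212 CPM in 4 h pools, against 140.4 and 118.5 CPM in sham pools, a log2 fold change of 0.65 ± 0.16 (adjusted p = 0.00631). The groups did not overlap, and over all 18 libraries the level stayed between 90.7 and 212 CPM. Without sham replicate 2 the change was 0.53 (adjusted p = 0.0704). The 24 h pools, at 134 and 140.3 CPM, were lower than the 4 h pools by -0.57 ± 0.16 on the log2 scale (adjusted p = 0.0139), a call that did not hold without 24 h replicate 1 (adjusted p = 0.0583) or 4 h replicate 2 (adjusted p = 0.0614).

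Il6ra, the chain that binds interleukin 6 itself (chr3:89869324-89913196), was not called against sham at any time in the main edgeR fit. Its highest pools were those of 2 h, 46.8 and 51.8 CPM, against 32.9 and 38.9 CPM in sham pools, and its lowest groups were 24 h with 25.9 and 23.3 CPM and 168 h with 23.2 and 26.1 CPM, which did not differ beyond their spread. The lowest single pool was 120 h replicate 1 with 21.7 CPM. The change against sham was 0.46 ± 0.18 at 2 h (adjusted p = 0.165), and -0.54 ± 0.19 both at 24 h (adjusted p = 0.0623) and at 168 h (adjusted p = 0.0896). DESeq2 called it lower at 24 h (adjusted p = 0.0300) and at 168 h (adjusted p = 0.0396). So did other edgeR fits, a replicate block at 24 h (adjusted p = 0.0481) and only sham and 168 h at 168 h (adjusted p = 0.0357). Il6ra was also called lower at 24 h without 120 h replicate 1 (-0.54) or 120 h replicate 2 (-0.55). The steps around the peak did pass: 0.67 ± 0.19 at 2 h against 0.5 h (adjusted p = 0.0292), where 0.5 h pools had 30.2 and 31.6 CPM, and -0.72 ± 0.19 at 24 h against 4 h (adjusted p = 0.0102), where 4 h pools had 37.2 and 43.7 CPM. The first step did not hold without any of its 4 libraries (adjusted p of 0.0807 to 0.132), nor the second without 24 h replicate 2 (0.0625) or 4 h replicate 2 (0.0671). Exons of Il6ra overlap by 242 bases those of Gm42809 on the other strand, for which no value was used here.

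Of the kinases, Jak1, which signals for every gp130 receptor (chr4:101151974-101265282), rose modestly. It had 165 and 189.8 CPM in 2 h pools and 191 and 206 CPM in 4 h pools, against 141 and 129.8 CPM in sham pools. The log2 fold change was 0.39 ± 0.11 at 2 h (adjusted p = 0.0382) and 0.55 ± 0.11 at 4 h (adjusted p = 0.00151), without overlap of the groups. All pools from 48 h on lay between 115 and 137 CPM. The 4 h call held without any single library, and the 2 h call did not hold without any of 8 of the 18, among them 2 h replicate 2 (0.29, adjusted p = 0.234) and sham replicate 2 (0.33, adjusted p = 0.2496). Exons of Jak1 overlap those of Raver2 on the other strand by 4 bases.

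Jak2, another kinase of the pathway (chr19:29251803-29313095), was called once. It had 8.16 and 11.1 CPM in 48 h pools, against 17.1 and 13.2 CPM in sham pools, a log2 fold change of -0.68 ± 0.24 (adjusted p = 0.0445). In the other 15 pools with a value it lay between 9.905 and 17.5 CPM, and at 4 h it had 16.02 and 15.8 CPM. The 48 h call did not hold without any of 10 single libraries, with adjusted p of 0.0536 to 0.285. Nor did it hold with DESeq2 (adjusted p = 0.0646), RLE factors (0.0529), a replicate block (0.0513), totals alone (0.143), the 16 complete libraries (0.0510) or unlisted genes at 0 (0.952) or at their bound (0.249). The change was -0.43 without 48 h replicate 1 and -0.92 without 48 h replicate 2.

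**Figure D2:**
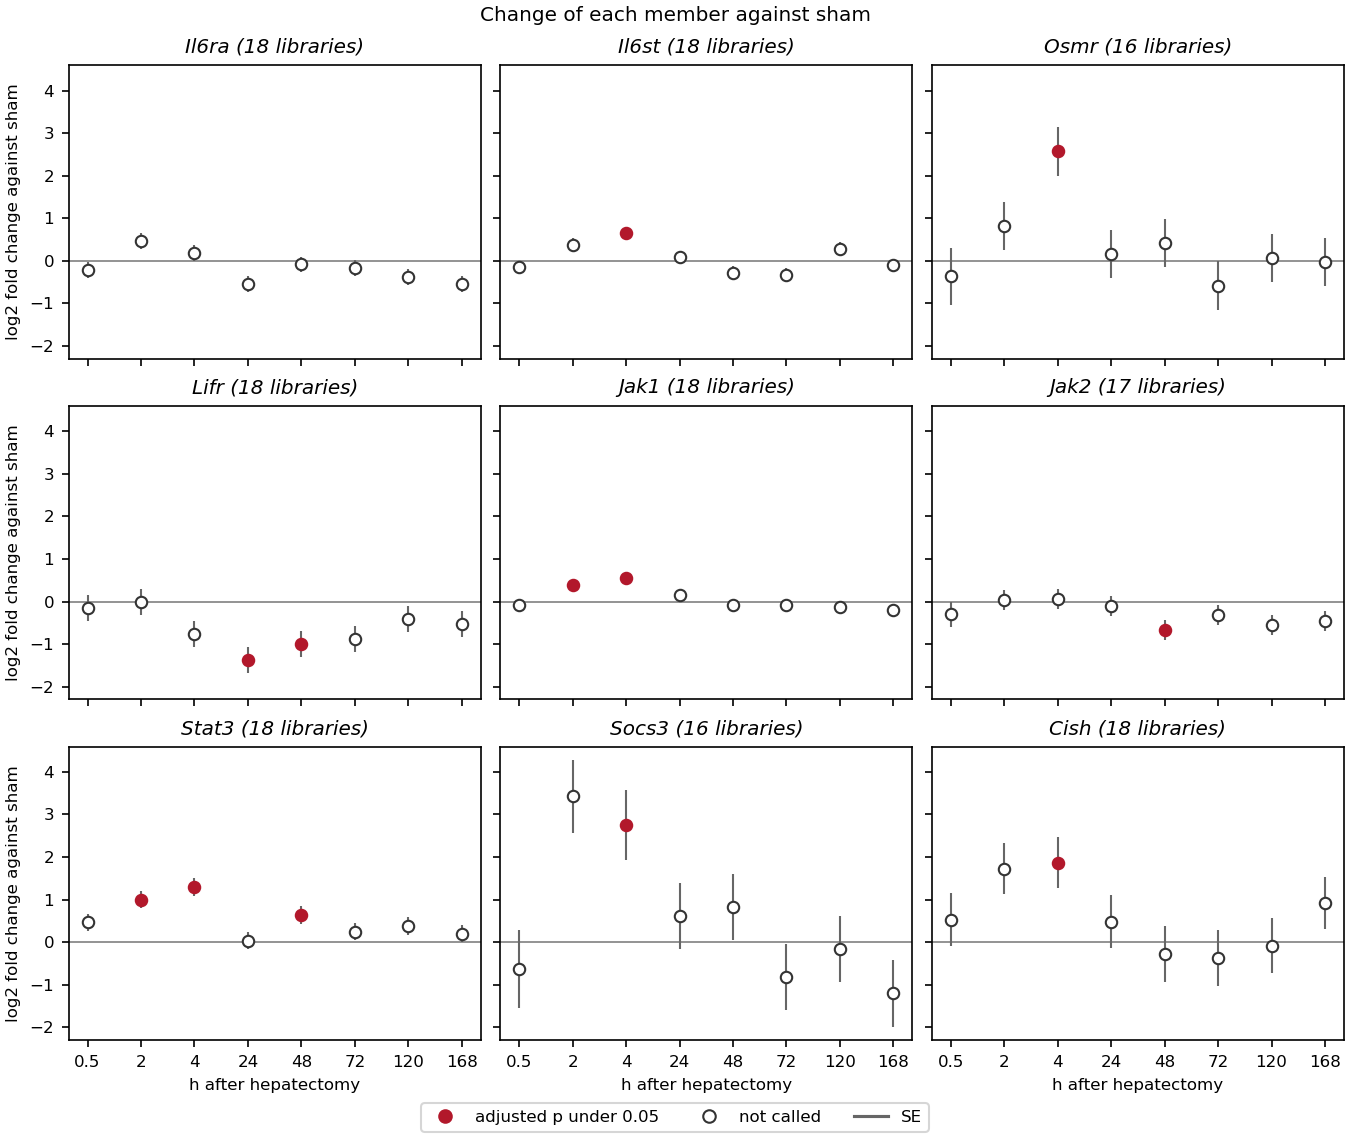
Log2 fold change against sham (points) with its SE (bars) for 9 members at 8 times in h after hepatectomy; filled points have an adjusted p under 0.05, and the number of libraries in the fit is in each title. At 4 h filled points lie above 0 for Il6st, Osmr, Jak1, Stat3, Socs3 and Cish, and the filled points of Lifr at 24 and 48 h and of Jak2 at 48 h lie below 0.

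Taken between neighbouring times, the members moved in 2 steps. At 2 h against 0.5 h, 4 of 9 were called, all higher (Il6ra, Il6st, Socs3 and Jak1), beside 7.22% of all genes called and 3.57% called higher. Il6st, at 0.52 ± 0.16 (adjusted p = 0.0451), did not hold without 10 single libraries there, with a change of 0.30 without 2 h replicate 2, and Jak1, at 0.48 ± 0.11 (adjusted p = 0.0111), did not hold without 0.5 h replicate 2 (adjusted p = 0.0710) or 2 h replicate 2 (adjusted p = 0.0729). At 4 h against 2 h only Osmr of the 9 was called, beside 9.39% of all genes. At 24 h against 4 h, 6 of 9 were called, all lower (Il6ra, Il6st, Stat3, Socs3, Jak1 and Osmr), beside 25.9% of all genes called and 12.7% called lower. Jak1 was lower by -0.40 ± 0.11 there (adjusted p = 0.0114), and not called without 24 h replicate 2 (0.0625) or 4 h replicate 2 (0.0536). In the 4 later steps the main edgeR fits called no member, beside 9.62%, 1.7%, 1.2% and 0% of all genes. Of the 9, 5, 2, 1 and 1 had an unadjusted p under 0.05 in these steps, and DESeq2 called 1 at 48 h against 24 h and 1 at 120 h against 72 h.

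Scaling bears on the smaller changes. With TMM factors, the median log2 fold change of all genes tested against sham was -0.04 (2 h), 0.05 (4 h), 0.03 (24 h), 0.02 (48 h) and 0.01 (72 h). When counts were divided by library totals alone, this median was -0.22 (2 h), -0.33 (4 h), 0.15 (24 h), 0.18 (48 h) and 0.12 (72 h). Relative to that scale, Stat3, Socs3 and Osmr at 4 h and Lifr at 24 and 48 h were still called. Lifr at 4 h, not called with TMM factors, was called lower with totals alone (-1.13, adjusted p = 0.00838). Il6st (0.27, adjusted p = 0.152), Jak1 (0.17, adjusted p = 0.238) and Cish (1.48, adjusted p = 0.0514) at 4 h kept their sign and were not called, and so did Jak1 at 2 h (0.23, adjusted p = 0.236) and Jak2 at 48 h (-0.50, adjusted p = 0.143). Of the 6 falls at 24 h against 4 h, 3 were not called on that scale: Il6ra was at -0.23 (adjusted p = 0.290), Il6st at -0.07 (adjusted p = 0.691) and Jak1 turned to 0.09 (adjusted p = 0.528). The rises of Il6ra (adjusted p = 0.0574), Il6st (0.107) and Jak1 (0.0754) at 2 h against 0.5 h were not called either.

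Per gene length, the order of the members changed with time. In sham livers Lifr had 62.7 ± 9.9 RPKM (SD, n = 2), Stat3 36.3 ± 3.7, Jak1 25.9 ± 2.1, Il6st 24.1 ± 3.4 and Il6ra 10.9 ± 1.0 RPKM, while Socs3 had 8.115 RPKM in the listed pool, Cish 4.32 ± 1.29, Jak2 3.05 ± 0.63 and Osmr 1.44 RPKM in the listed pool. Jak1 and Il6st were within each other's spread. At 2 h Socs3 led the order with 73.2 ± 23.5 RPKM, within the spread of Stat3 at 64.8 ± 17.5 RPKM. At 4 h Stat3 led with 69.0 ± 0.8 RPKM, Socs3 followed with 42.2 ± 0.7 RPKM, and Jak1 (29.2 ± 2.2), Il6st (29.0 ± 2.6) and Lifr (28.7 ± 9.5) did not differ beyond their spread. Stat3 was the highest of the 10 in 10 of the 18 libraries, Lifr in 6 and Socs3 in the 2 libraries of 2 h. At 168 h Lifr at 43.9 ± 6.2 and Stat3 at 41.9 ± 1.5 RPKM did not differ beyond their spread, as at 120 h, where they had 47.3 ± 12.6 and 47.2 ± 9.99 RPKM.

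The ratio of 2 genes within a library does not depend on scaling, and these ratios were chosen after the levels had been seen, so they are given without a test. Osmr over Lifr, by RPKM, was 0.330 and 0.168 at 4 h, against 0.0206 in sham replicate 1. At 24 h this ratio was 0.0252 in replicate 1 and 0.152 in replicate 2. Lifr over Il6st was 0.807 and 1.15 at 4 h and 1.32 and 0.6005 at 24 h, against 2.63 and 2.57 in sham pools. The pools of 48 h, at 1.61 and 1.57, lay close together and were still below sham. Socs3 over Stat3 was 1.08 and 1.16 at 2 h and 0.601 and 0.624 at 4 h, against 0.208 in sham replicate 1 and 0.0987 in the listed 0.5 h pool. So the pools of 2 h, which differed in both genes, had nearly the same ratio.

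**Figure D3:**
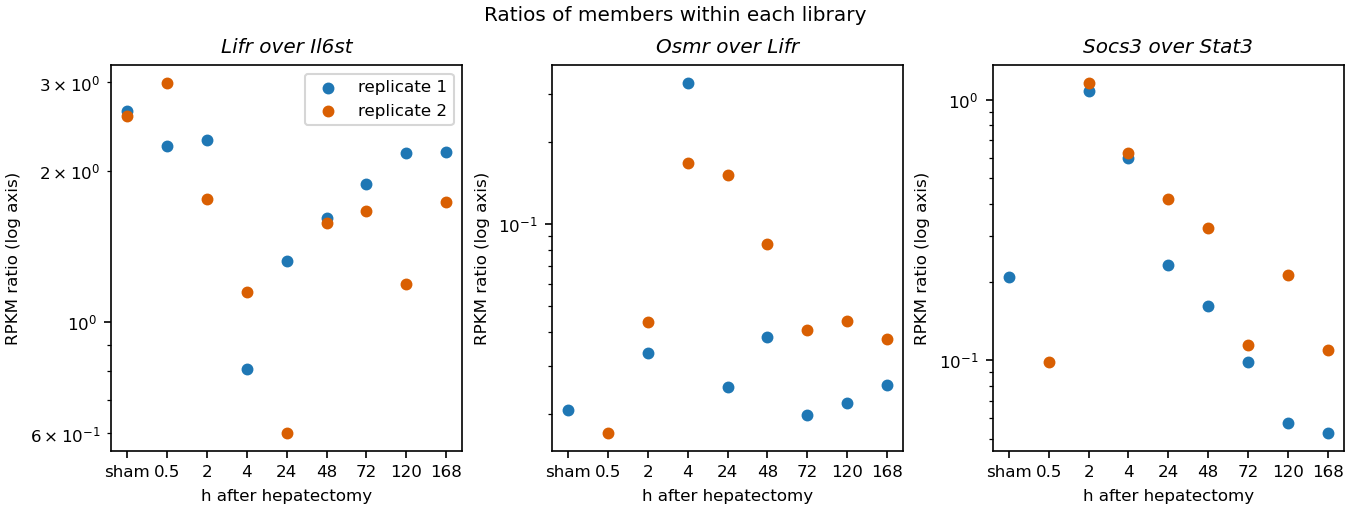
Ratio of the deposited RPKM values of 2 members within each library (log axes that do not start at 0), for sham livers and 8 times in h after hepatectomy. Points are pools coloured by replicate and ratios with an unlisted gene are left out; at 4 h Lifr over Il6st is 0.807 and 1.15, Osmr over Lifr is 0.330 and 0.168, and at 2 h Socs3 over Stat3 is 1.08 and 1.16.

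Over the 16 complete libraries, the levels of Socs3 and Jak1 ran most alike among pairs of members (Pearson r = 0.846 of log2 CPM), followed by Stat3 with Osmr (0.834) and Stat3 with Socs3 (0.821). Osmr and Lifr had the lowest value, -0.128. These libraries share 9 groups, so r mostly restates the time courses, and it is given without a p. Among all 7043 named genes with a mean of at least 10 CPM, the gene most like Stat3 was Myd88, the adaptor of Toll-like and interleukin 1 receptors (r = 0.966), followed by Lrrc8a and Tacc2. For Socs3 it was Il1r1, an interleukin 1 receptor (0.947), then Arid5a and Nfkbiz. For Osmr it was the iron transporter Slc11a2 (0.970), then the citrate transporter Slc13a5 and the interleukin 17 receptor Il17ra. Lifr ran with the carboxylesterase Ces1d (0.968), the carbonic anhydrase Car3 and Slc22a30. Il6st ran with Alkbh5 (0.914), Trappc11 and the acute-phase gene Crp. Jak1 ran with Rapgef4 (0.953), Pfkfb2 and St3gal5. Il6ra ran with Cpt1a (0.879), Hnf4a and Tns1, Jak2 with Zfp655 (0.918), Bmpr2 and Ubxn7, and Cish with Cdc40 (0.865), Slc16a10 and Pitpnc1.

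The ligands that would engage these receptors were scarcely seen in liver RNA. Il6 itself had 8 reads in the complete 0.5 h library, 8 over both 2 h libraries, 0 over both 4 h libraries and 2 in sham replicate 1, and so was not tested. Of 9 ligand genes of the family 2 passed the filter on low counts, Ctf1 and Ebi3. Neither was called against sham by edgeR with TMM factors, DESeq2 or limma-trend. At an unadjusted p under 0.05 there were Ctf1 at 4 h and Ebi3 at 72 h. In a fit with totals alone, 1 of the 2 was called lower at 4 h. Ctf1 (cardiotrophin 1) had 1.61 to 1.78 CPM in 4 h pools, against 3.50 CPM in sham replicate 1 (log2 fold change -1.07 ± 0.40, adjusted p = 0.0965). Ebi3 had between 0.210 and 1.83 CPM. Of 6 other receptor genes of the family 3 passed the filter, and none was called against sham by any of the same tools. Unadjusted, Il11ra1 was under 0.05 at 0.5, 4 and 72 h and Il27ra at 24 h. In a fit with totals alone, 1 of the 3 was called lower at 4 h. Il11ra1, which binds interleukin 11, had 5.50 to 6.29 CPM at 4 h, against 8.25 to 10.5 CPM in sham pools (-0.68 ± 0.27, adjusted p = 0.0722), and Cntfr had 4.36 to 5.34 CPM at 4 h, against 2.00 CPM in sham replicate 1 (1.24 ± 0.59, adjusted p = 0.181).

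Known targets of interleukin 6 and Stat3 in liver rose together with the members. Of 18 such genes, all tested and none of them a member, 11 were higher and 0 lower at 2 h, and 16 were higher and 0 lower at 4 h, where 3.11% and 12.7% of all genes were called higher. Their median log2 fold change was 1.36 at 2 h and 2.03 at 4 h, beside -0.04 and 0.05 for all genes. At 24 h edgeR called 0 against sham, with 4 at an unadjusted p under 0.05, DESeq2 called 3 and limma-trend 1. At 24 h against 4 h, 16 of the 18 were lower. Against sham, at 48 h 1 was higher and at 72 h 1 was lower. This list was drawn up with earlier results of these data known, so its direction is not independent evidence.

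The fibrinogen chains show the size of the rise. Fgb, the fibrinogen beta chain, had 29990 to 35320 CPM in 4 h pools, against 7880 to 8174 CPM in sham pools (2.02 ± 0.25, adjusted p = 4.94e-05), and Fga and Fgg rose alike (2.08 ± 0.27 and 2.11 ± 0.23). Il1r1 had 473 to 582 CPM at 4 h, against 69.9 to 81.8 CPM in sham pools (2.80 ± 0.37, adjusted p = 7.90e-05). At 2 h, Cebpd, a transcription factor of the acute phase, had 26.3 to 39.6 CPM, against 5.38 to 6.64 CPM in sham pools (2.48 ± 0.40, adjusted p = 0.00216), and its relative Cebpb rose by 0.83 ± 0.17 (adjusted p = 0.00866), not called without sham replicate 1 (0.67, adjusted p = 0.116). Pim3, a kinase, was already higher at 0.5 h, with 73.2 to 113 CPM, against 29.7 to 39.9 CPM in sham pools (1.42 ± 0.25, adjusted p = 0.0353), and it was the only gene of the list called then. That call did not hold without sham replicate 1 (adjusted p = 0.192), without sham replicate 2 (0.342) or with the 16 complete libraries (0.198). Steap4, a metalloreductase, was the one called at 48 h (2.42 ± 0.71, adjusted p = 0.0180), where its pools had 354 and 1749 CPM, against 217 and 176 CPM in sham pools; without sham replicate 1 (adjusted p = 0.0831) or sham replicate 2 (0.101) it was not called. Cebpb was the one lower at 72 h (-0.58 ± 0.17, adjusted p = 0.0431), not called without sham replicate 1 (0.0603) or sham replicate 2 (0.272). The 2 genes not called at 4 h, named here after their values were seen, were Pim1 (0.52 ± 0.41) and Timp1 (3.36 ± 1.63, adjusted p = 0.192). Without sham replicate 1 the count at 2 h was 3 of 16 tested, without sham replicate 2 it was 5 of 18, and at 4 h it was 13 of 16 and 14 of 18.

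**Figure D4:**
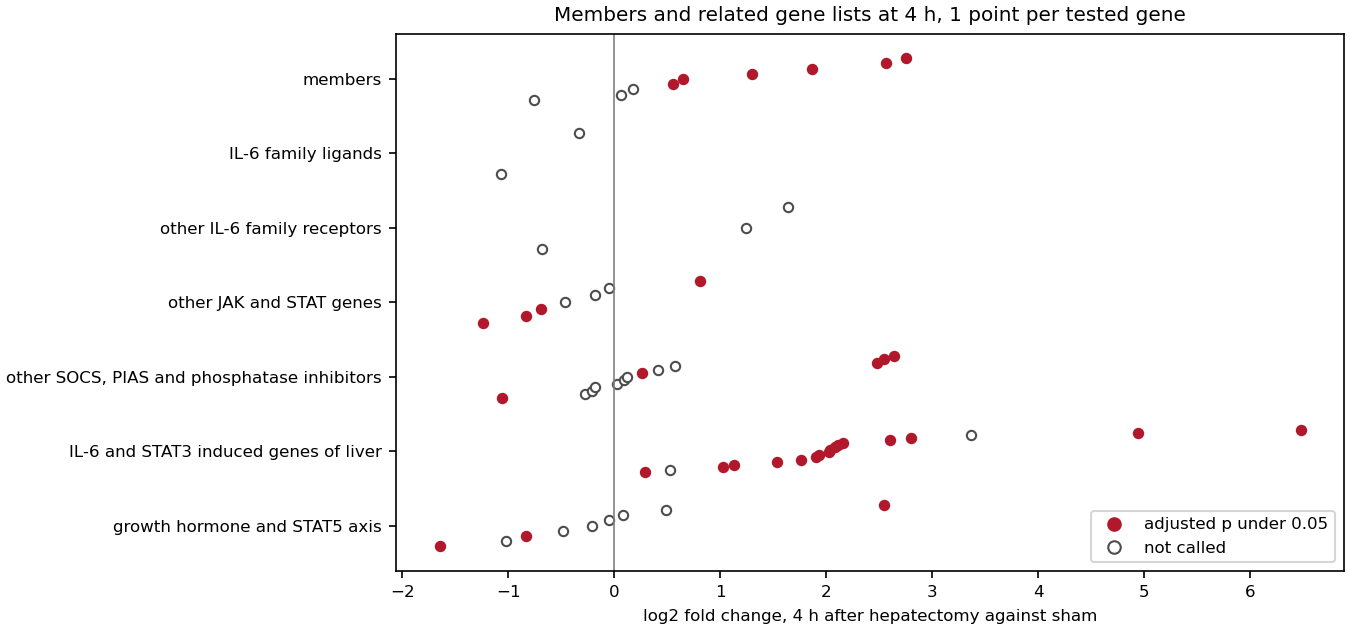
Log2 fold change at 4 h after hepatectomy against sham for the 9 tested members and for 6 lists of related genes, 1 point per tested gene; filled points have an adjusted p under 0.05, and the height within a row only keeps points apart. In the list of interleukin 6 and Stat3 targets 16 of 18 points are filled and all 16 lie above 0; Socs2, Stat5a and Stat5b appear in 2 lists each.

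Other inhibitors of the pathway moved in both directions. Of 13 SOCS, PIAS and phosphatase genes, 3 were higher and 1 lower at 2 h, and 4 were higher and 1 lower at 4 h, with a median log2 fold change of 0.12 at 4 h (-0.25 with totals alone). Of all genes, 5.93% were called at 2 h and 24.8% at 4 h. Without sham replicate 2 none was called at 2 h, and 3 were higher and 0 lower at 4 h; without sham replicate 1, 1 of 11 was higher and 1 lower at 2 h, and 3 were higher and 1 lower at 4 h. The 4 higher were 3 with totals alone and with a replicate block. Ptpn2, a phosphatase that removes phosphate from Janus kinases and Stat proteins, had 32.5 to 34.7 CPM at 2 h and 72.2 to 89.4 CPM at 4 h, against 11.2 to 14.5 CPM in sham pools (1.42 ± 0.25, adjusted p = 0.00374, and 2.64 ± 0.25, adjusted p = 1.12e-05). Ptpn1, its close relative, rose by 1.26 ± 0.30 at 2 h and 2.48 ± 0.30 at 4 h and was still higher at 48 h (1.11 ± 0.30, adjusted p = 0.0115). The 2 h call of Ptpn1 did not hold without sham replicate 1 (adjusted p = 0.0728), nor did its 2 h and 48 h calls (0.146 and 0.0858) and the 2 h call of Ptpn2 (0.0546) without sham replicate 2. Socs2, which restrains growth hormone signalling, had 107 to 118 CPM at 4 h, against 18.6 to 19.7 CPM in sham pools (2.54 ± 0.47, adjusted p = 0.00135). It was also called higher at 2 h, with 77.8 to 81.4 CPM (log2 fold change 2.08). The 2 h call of Socs2 did not hold without sham replicate 1 (2.04) or sham replicate 2 (2.13). Ptpn11 rose by 0.27 ± 0.10 at 4 h, a change that turned to -0.11 with totals alone and was not called without sham replicate 1 (adjusted p = 0.0881) or sham replicate 2 (0.238). Pias3, an inhibitor of Stat3 on DNA, was lower at 2 h (-1.37 ± 0.31, adjusted p = 0.0153) and at 4 h (-1.06 ± 0.30, adjusted p = 0.0179), with 2.74 to 3.88 CPM at 4 h, against 6.25 to 7.52 CPM in sham pools. Without sham replicate 2 neither change of Pias3 was called (adjusted p = 0.105 at 2 h and 0.104 at 4 h). Socs7 was lower at 72 h (-0.69 ± 0.18, adjusted p = 0.0307), not called without sham replicate 1 (0.160) or sham replicate 2 (0.115).

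Of the 8 other Janus kinase and Stat genes, 7 passed the filter. At 4 h, 1 of them was higher and 3 were lower, beside 24.8% of all genes called. Tyk2, the third kinase that gp130 can use, had 7.604 to 10.2 CPM in 4 h pools, against 20.7 to 21.3 CPM in sham pools (-1.24 ± 0.22, adjusted p = 0.000879). Stat5b, which carries the growth hormone signal, fell by 0.83 at 4 h on the log2 scale (SE 0.18, adjusted p = 0.00306) and was also lower at 24 h (-0.82 ± 0.18) and 48 h (-0.56 ± 0.18), which without sham replicate 1 were not called (-0.58 and -0.32, adjusted p = 0.0962 and 0.259). Stat6 was lower at 4 h (-0.69 ± 0.16), and Jak3, a kinase best known from lymphocytes, was higher at 4 h (0.81 ± 0.23, adjusted p = 0.0185) and 24 h (0.92 ± 0.23). Neither call of Jak3 held without sham replicate 1 (adjusted p = 0.143 and 0.179), the 24 h call did not hold without sham replicate 2 (0.0506), and the 4 h call did not with totals alone (0.109). Stat2 was lower at 2 h (-0.54 ± 0.15, adjusted p = 0.0323), not called without sham replicate 1 (0.169) or sham replicate 2 (0.115).

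Genes of the growth hormone axis, whose signal Cish and Socs2 restrain, were called in both directions. Of 9 genes tested, 1 was higher and 2 were lower at 4 h, and 0 were higher and 3 lower at 48 h, that is 3 of 9 at each time beside 24.8% and 25.5% of all genes called. Ghr, the growth hormone receptor, had 177 to 215 CPM in 48 h pools, against 513 to 586 CPM in sham pools (-1.49 ± 0.25, adjusted p = 0.000857), and was still lower at 72 h (-0.94 ± 0.25, adjusted p = 0.0248), a call that did not hold without sham replicate 1 (0.145) or sham replicate 2 (0.0696). Igfals, a carrier of insulin-like growth factor, had 31.7 to 41.8 CPM at 4 h, against 111 to 119 CPM in sham pools (-1.65 ± 0.22, adjusted p = 8.79e-05). Like Lifr, Ghr was lower at 48 h, when Stat3 was higher, and a link between these changes was not tested.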

How the data were processed

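RNA of C57BL/6 mouse liver, pooled from 3 mice per library, was enriched with oligo(dT), fragmented and sequenced, per the labels' protocols. Reads were placed on mm10, as the submitters' processing notes say. The aligner, the counter and any use of strand were not given in the sources used here. A table held 1 library with a read count per gene (reads mapped uniquely to it, per the file headers) and an RPKM value that the authors made from count, gene length and library total. In 16 tables the counts sum to the header total. The tables of sham replicate 2 and 0.5 h replicate 1 stop early and leave 1.14% and 4.73% of the reads unlisted. No library had more than 0.0326% of its reads in unnamed genes.

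The counts entered a quasi-likelihood F test of edgeR 4.0.16 (R 4.3.3) with TMM factors and header totals as library sizes. Benjamini-Hochberg adjustment ran over all genes of a fit within each contrast, with a threshold of 0.05. There were 3 fits. The 18-library fit over 4906 genes listed in both short tables left 9 residual degrees of freedom, with TMM factors of 0.765 to 1.16 and a biological coefficient of variation of 0.139. The 17-library fit, without 0.5 h replicate 1, held 8026 genes, and the fit of the 16 complete libraries held 12199. Each gene took its result from the fit with the most libraries that held it. A gene was kept where 2 or more libraries reached the CPM that 10 reads make in the library of median size, with 15 reads or more in total. As SE serves |log2 fold change| over the square root of F. CPM values use the TMM factors of the 18-library fit. Log2 CPM for likeness had a prior count of 2. Replicates are separate pools per the labels.

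All 10 members are named. From each related list at most 4 called genes were named per time, smallest p first, or 2 of a list with no call. Members and lists were chosen with earlier results of these data known, and the ratios, the promoter search and the counts by list under alternatives after the levels had been seen. The fits, but not the SE, were tested on simulated counts, with the same spread for every gene and changes at 4 h only. Genes whose pools differ widely, such as Socs3 and Cish, are not covered by that simulation. Alternatives were DESeq2 1.42.0, limma-trend (limma 3.58.1), RLE factors, totals alone, no filter, only 2 groups, a replicate block, 16 libraries for every gene, unlisted genes at 0 or at their bound, and each library left out. Floors for 0 reads hold counting error alone: PCR copies are no independent molecules. Python 3.11.15 with pandas 2.3.3 read the tables and matplotlib 3.10.9 drew the figures.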

Additional observations from a re-analysis of the deposited data

How the results depend on the processing

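The count of members called against sham moved both with the way the 2 short tables were treated and with single libraries. With the 16 complete libraries for every gene it was 0 at 2 h, 3 at 4 h (Stat3, Socs3 and Osmr) and 1 at 48 h, and with unlisted genes at 0 it was 3 at 4 h and 0 at 48 h. The 3 called at 4 h with unlisted genes at 0 were Il6st, Jak1 and Stat3, while Socs3, Osmr and Cish were not called. With unlisted genes at their bound the count was 4 at 2 h, 2 at 24 h and 1 at 168 h, and with totals alone 1 at 2 h. DESeq2 gave 2 at 24 h, 1 at 72 h and 1 at 168 h, and fits of only the 2 groups compared gave 0 at 24 h, 1 at 72 h and 2 at 168 h. Leaving out 1 library at a time, the count ran from 0 to 3 at 2 h, 3 to 7 at 4 h, 0 to 2 at 24 h, 0 to 3 at 48 h and 0 to 1 at 72 h, was 0 at 0.5, 120 and 168 h in every such fit, and 8 members differed over all groups. Without sham replicate 1, Socs3 and Osmr have no sham value. The fall of Jak1 at 24 h against 4 h, the 1 called change of a member that turned its sign, was 0.0900 with totals alone. The cause of these moves was not tested. The 16-library setting has fewer sham and 0.5 h libraries. Its adjustment also ran over 12199 genes, and its biological coefficient of variation was 0.166, against 0.139 in the 18-library fit. The main fits did not pair samples by replicate number. Over 36 pairs of groups, the correlation of same-numbered deviations ran from -0.546 to 0.530 with a median of 0.043. It was over 0.1 in 14 pairs and under -0.1 in 9 pairs. Whether some groups shared a batch was not tested. With a replicate block the count was 2 at 24 h (Lifr and Il6ra) and within 1.5 times the reported count at the other times. Genes under 10 CPM in sham, such as Osmr, and Socs1 are limited by depth.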
